A study of Mus musculus with 11 samples.

Results

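The genes of the major histocompatibility complex (MHC) and its antigen presentation machinery were followed in cells of the periostin lineage in mammary glands of naive mice. The set held 9 genes, each found by its target name among 19965 endogenous probes of the count table: Cd74, H2-Aa, H2-Ab1, H2-Eb1, H2-DMa and Ciita of the class II system, and H2-K1, H2-D1 and B2m of class I. Counts came from 11 regions of fixed frozen gland of 3 lineage-tracing mice, measured by digital spatial profiling, in which ultraviolet light frees barcoded probes from a selected part of a section for sequencing. In each region the cells carrying ZsGreen, the green reporter of periostin (Postn) expression, were segmented and collected. The 6 Pdpn-adjacent regions (2, 3, 4, 7, 8 and 11) lay near structures stained for podoplanin, a marker of lymphatic vessels, and the 5 SMA-adjacent regions (1, 5, 6, 9 and 10) lay near ducts and blood vessels stained for smooth muscle actin. The mice are labelled naive in all regions, and all carried the reporter. Strain, age and the driver of the reporter are not given in the sources used here, and a lineage reporter also marks cells that no longer express Postn.

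Class I molecules pair a heavy chain, such as those encoded by H2-K1 and H2-D1, with beta-2 microglobulin (B2m), and show peptides from the cell interior to cytotoxic T cells. They are made by nearly all nucleated cells. Class II molecules pair an alpha chain with a beta chain and show peptides from endocytosed proteins to helper T cells. They are typical of dendritic cells, macrophages and B cells, and interferon gamma can induce them in stromal, epithelial and endothelial cells. Ciita is the coactivator that switches class II genes on, through factors bound to the X and Y boxes of their promoters.

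Promoter sequences of 3 genes are shown, of H2-Aa and H2-Eb1 for the X and Y boxes that Ciita acts through, and of H2-D1 for its upstream sites. Each run is the 200 bases before the transcription start, read 5′ to 3′ on the gene's strand, from RefSeq on GRCm38.p6. The windows lie at chr17:34287824-34288023 (minus strand, H2-Aa), chr17:34305667-34305866 (plus strand, H2-Eb1) and chr17:35262894-35263093 (plus strand, H2-D1). Capitals mark letters that match a searched motif on either strand. The X box was searched as CTNGCAAC and the Y box as CTGATTGG. The CCAAT box was searched by the letters of its name, a site of the NF-kB type as GGGATTCC, and one of the interferon response type as TTTCNNTTC. The Y box letters contain a reverse CCAAT, so those matches overlap.
H2-Aa: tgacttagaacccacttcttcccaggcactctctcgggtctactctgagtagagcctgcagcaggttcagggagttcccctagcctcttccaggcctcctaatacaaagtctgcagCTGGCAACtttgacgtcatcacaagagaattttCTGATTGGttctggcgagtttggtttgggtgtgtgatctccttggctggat
H2-Eb1: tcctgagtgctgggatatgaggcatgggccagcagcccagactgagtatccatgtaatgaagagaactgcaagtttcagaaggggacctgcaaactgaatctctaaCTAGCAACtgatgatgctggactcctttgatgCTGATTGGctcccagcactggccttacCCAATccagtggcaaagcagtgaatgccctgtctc
H2-D1: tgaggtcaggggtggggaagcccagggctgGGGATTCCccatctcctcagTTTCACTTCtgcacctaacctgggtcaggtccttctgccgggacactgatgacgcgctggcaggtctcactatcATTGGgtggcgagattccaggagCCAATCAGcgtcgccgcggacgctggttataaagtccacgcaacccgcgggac

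H2-Aa and H2-Eb1 both held an X box followed by a Y box, with 25 bases between the boxes in H2-Aa and 24 in H2-Eb1. Among 32851 promoter windows of the same length, 2.44% held the X box letters, 3.54% the Y box letters and 29.3% CCAAT. H2-D1 held the NF-kB type site, found in 0.67% of windows, and the interferon response type site, found in 5.0%, upstream of 2 CCAAT boxes, of which the nearer matched the Y box letters in reverse. The NF-kB type letters were shortened after their matches were seen, so the 0.67% is no independent measure of how rare such a match is. Both windows of H2-K1 held the same NF-kB type and interferon response type letters as H2-D1, and neither matched the Y box. B2m held only a CCAAT box. Neither of the 2 windows of H2-DMa matched the X or Y box, and 1 held a CCAAT box. Over the 6 genes, the X box letters were matched only in class II genes, H2-Aa and H2-Eb1. The NF-kB type and interferon response type letters were matched only in class I genes, H2-K1 and H2-D1. The Y box and CCAAT letters were matched in both classes. H2-DMa and B2m matched none of the X box, NF-kB type and interferon response type letters. A match describes the letters and shows no binding. Entries matched 6 of the 9 genes, and Cd74, H2-Ab1 and Ciita had none.

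Each gene was read by 1 probe. In GRCm38.p6 coordinates, H2-Aa was read at chromosome 17, 34284375 to 34284418, the H2-Ab1 probe at chromosome 17, 34264805 to 34264839, and the H2-Eb1 probe at chromosome 17, 34305988 to 34306022. The H2-DMa probe lies at chromosome 17, 34137162 to 34137197, the B2m probe at chromosome 2, 122150938 to 122150977, and the Ciita probe at chromosome 16, 10511125 to 10511164. Each lies within the RefSeq span of its gene, and exons were not read here. The H2-K1 probe names H2-K1 and H2-Q4 and has 2 sites, and the H2-D1 probe names H2-D1 and H2-L. The values called H2-K1 and H2-D1 are therefore those of a probe that cannot separate the genes of each pair. Since each probe binds with its own efficiency, levels were compared between regions and not between genes.

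Depth limited what the Pdpn-adjacent group could show. Total counts ran from 760761 to 3086323 in SMA-adjacent and from 22757 to 2271664 in Pdpn-adjacent regions, where regions 2, 3 and 11 held under 100000 counts. The lowest value in the table is 1, so a gene listed at 1 may have had no count. At that value it stands at 37.5 CPM (CPM being counts scaled to a common library size) in region 2, 12.3 in region 3 and 34.3 in region 11. Levels over background are counts divided by the geometric mean of the 210 negative-control probes of the region. The floor of a region is the mean plus 2 SD of those probes on the log2 scale. The labels do not tie regions to mice, and some regions share a mouse. Of 8 fibroblast markers, Col3a1, Col1a1, Col1a2 and Dpt passed the floor in 9 of 11 regions each and Dcn in 8. Lum passed in 5, and Pdgfra and Postn, the gene of the lineage, in 4 each. In regions 2 and 3, 0 of the 8 passed. The podoplanin transcript passed the floor in no region.

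Of the 9 genes, 4 stood above the floor in at least 9 of the 11 regions: Cd74, H2-K1 and H2-D1 in 9 and B2m in 10. Among all probes 3.2% did so. H2-Ab1 passed the floor in 5 regions, H2-Aa in 4 and H2-Eb1 in 2. H2-DMa and Ciita passed it in none, as did 57.8% of all probes. Region by region, 4 to 7 of the 9 genes passed in each SMA-adjacent region and 4 to 6 in Pdpn-adjacent regions 4, 7 and 8, while region 2 had 1, region 3 had none and region 11 had 5. The share of all probes above the floor was 12.2%, 8.79%, 12.5%, 19.1% and 19.2% in SMA-adjacent regions 1, 5, 6, 9 and 10, and 10.0%, 2.77%, 9.23%, 5.73%, 10.2% and 22.4% in Pdpn-adjacent regions 2, 3, 4, 7, 8 and 11. In regions 2 and 11 a count of 2 already lay above the floor, and Cd74 passed in region 11 from 2 counts. With the floor at 1 SD, Cd74 passed in 10 regions, H2-Ab1 in 7, H2-Aa in 6, H2-Eb1 in 4 and Ciita in 3. At 3 SD, Cd74 passed in 7, H2-Ab1 in 4, H2-Aa in 2, and H2-Eb1 and Ciita in 0. The numbers for H2-K1, H2-D1, B2m and H2-DMa did not change.

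**Figure D1:**
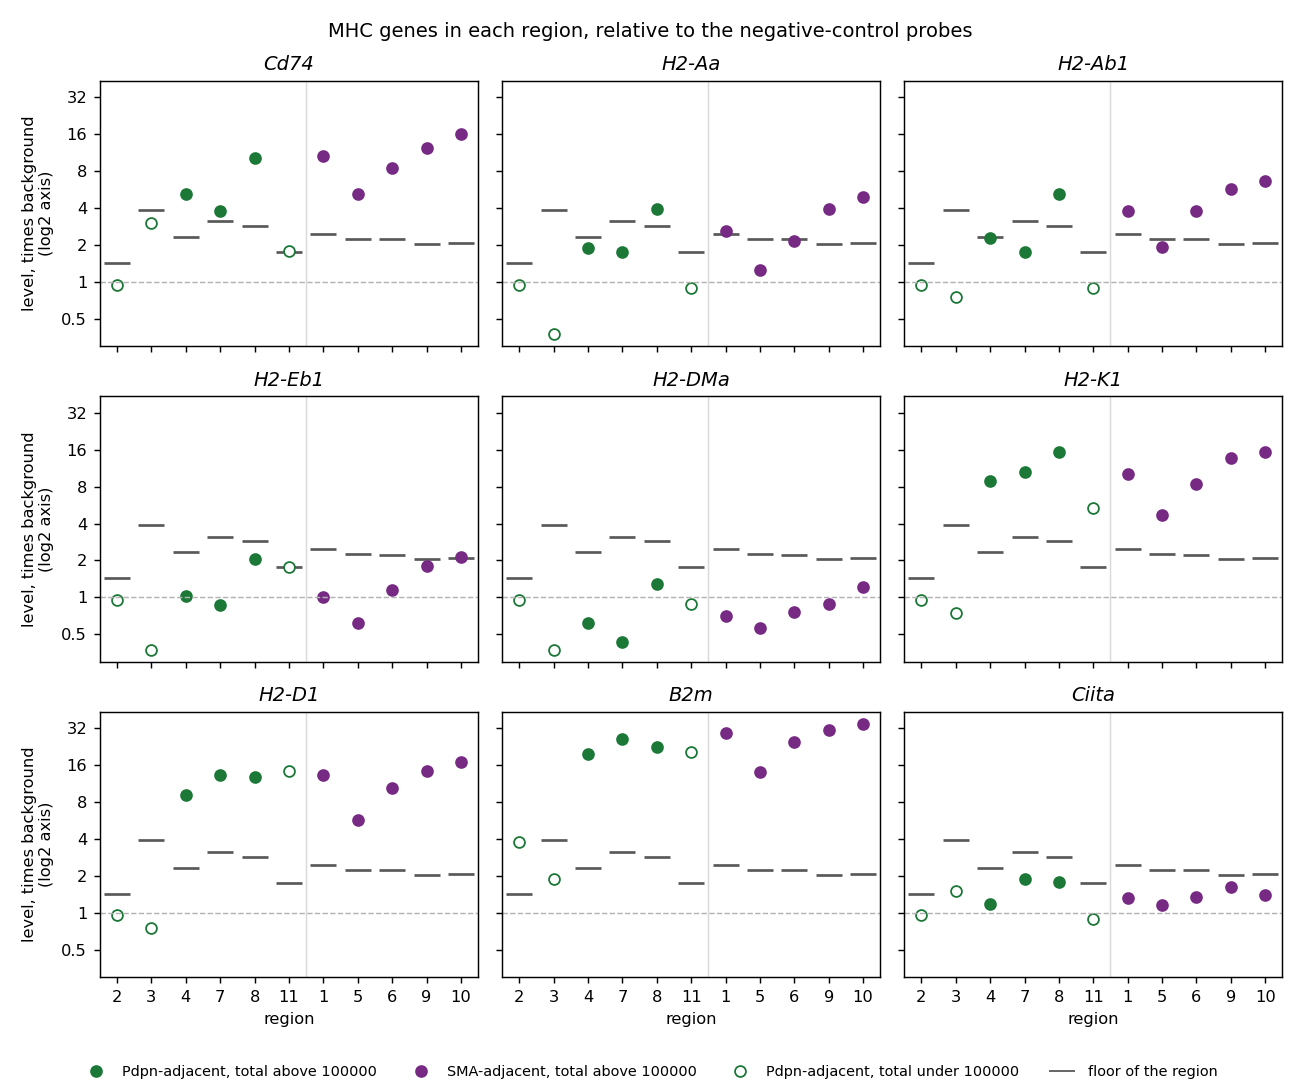
Level of each of the 9 genes in each region, as counts divided by the geometric mean of the negative-control probes (log2 axis). Points are regions, green for Pdpn-adjacent and purple for SMA-adjacent, open where the total count is under 100000, and short grey lines mark the floor of each region. B2m, H2-K1 and H2-D1 stand above the floor in all 5 SMA-adjacent regions and in regions 4, 7, 8 and 11, and H2-DMa and Ciita stand below it in all 11.

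No gene of the set differed between the region types past the threshold. With edgeR's quasi-likelihood test on 19935 probes, 0 of the 9 passed an adjusted p of 0.05, where 0.01% of all probes did. DESeq2, with an adjusted p for 6 of them, and limma-voom, with 9, called 0 as well, against 0.0853% and 0.0% of all probes. At an unadjusted edgeR p under 0.05, Cd74 and H2-Ab1 were lower in Pdpn-adjacent regions and 0 genes were higher, against 3.19% of all probes lower, 2.84% higher and 6.03% either way. The fitted log2 fold change (Pdpn-adjacent minus SMA-adjacent) was below 0 for 8 of the 9 genes and for 48.8% of all probes. Its median was -0.38 over the 9 genes and 0.01 over all probes. The 2 region types overlapped in CPM for 9 of 9 genes, and they failed to overlap for 0.838% of probes, 0.391% lower and 0.446% higher. The tests here and throughout treat regions as independent, although some come from the same animal, so every p-value given may be smaller than it should be. In mixed captures, fewer cells of a type and less RNA per cell cannot be told apart.

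**Figure D2:**
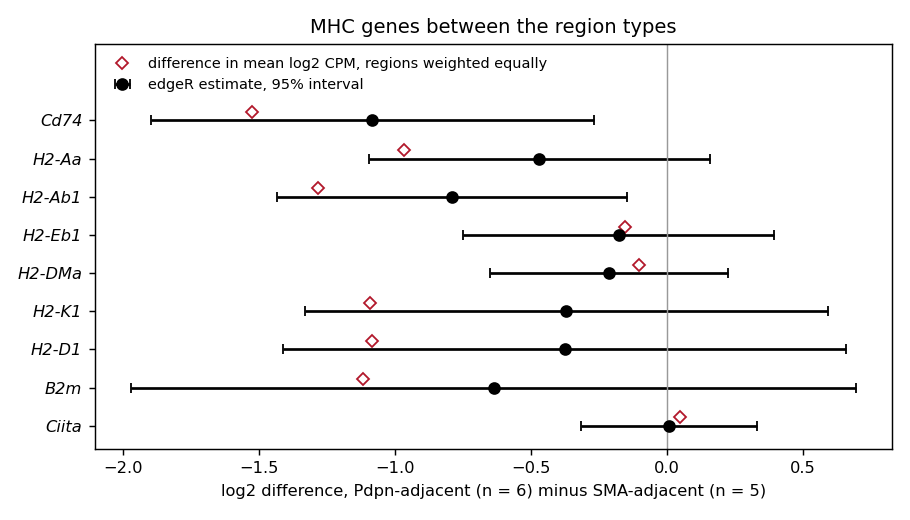
Difference of each gene between Pdpn-adjacent (n = 6) and SMA-adjacent (n = 5) regions on the log2 scale. Black points are the edgeR estimates with 95% intervals, which give deeper libraries more weight, and open red diamonds are differences of mean log2 CPM with every region weighted equally. The intervals of Cd74 and H2-Ab1 lie below 0 and the other 7 span it. The diamonds lie further below 0 than the points for Cd74, H2-Aa, H2-Ab1, H2-K1, H2-D1 and B2m.

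Cd74 encodes the invariant chain, which blocks the peptide groove of new class II molecules and guides them to endosomes. It stood at 319, 178, 271, 367 and 471 CPM in SMA-adjacent regions 1, 5, 6, 9 and 10. In Pdpn-adjacent regions 4, 7 and 8 it stood at 173, 121 and 266 CPM. Regions 2, 3 and 11 gave 37.5, 98.8 and 68.5 CPM from raw counts of 1, 8 and 2. Thus 5 of 6 Pdpn-adjacent regions lay below every SMA-adjacent region, region 4 narrowly so beside region 5, and region 8 lay within the SMA-adjacent range. The means were 127 ± 82.0 CPM (SD, n = 6) and 321 ± 109 CPM (SD, n = 5).

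The fitted log2 fold change of Cd74 was -1.08 ± 0.40 SE, with a 95% interval of -1.90 to -0.27 (edgeR adjusted p = 0.668). The exact permutation test of mean log2 CPM, two-sided over all splits of the 11 regions, gave p = 0.0130, and p = 0.612 after adjustment over all probes. The smallest p that test can give is 0.00216. Among all probes 3.88% were lower and 4.01% higher at an unadjusted exact p under 0.05. The fitted value was -1.75 without regions 4 and 8, and -0.69 with the above-background share of counts as covariate (edgeR adjusted p = 0.530 and 0.685). Without the shallow regions 2, 3 and 11 it was -0.78 (edgeR adjusted p = 1.00, exact permutation p = 0.0893). Some regions share an animal, and these p-values may be too small.

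H2-Ab1 and H2-Aa encode the beta and alpha chains of the class II molecule called I-A. H2-Ab1 stood at 113, 66.4, 122, 171 and 194 CPM in SMA-adjacent regions 1, 5, 6, 9 and 10, and at 74.9, 55.9 and 136 CPM in Pdpn-adjacent regions 4, 7 and 8. In regions 2, 3 and 11 its raw counts were 1, 2 and 1. Regions 2, 3, 7 and 11 lay below every SMA-adjacent region, and region 8 lay above 3 of them. The fitted log2 fold change was -0.79 ± 0.31 SE (95% interval -1.43 to -0.15, edgeR adjusted p = 0.758, exact permutation p = 0.0303, 0.617 after adjustment over all probes). Without regions 4 and 8 it was -1.60, and with the above-background share of counts as covariate -0.42 (edgeR adjusted p = 0.519 and 0.732). Leaving out region 2, 3, 7, 9, 10 or 11 moved the exact permutation p above 0.05, to between 0.0556 and 0.0714. Regions of shared animals enter here as well, so the p-values may be too small.

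H2-Aa stood at 77.8, 43.0, 68.5, 117 and 144 CPM in SMA-adjacent regions 1, 5, 6, 9 and 10. Pdpn-adjacent regions 4, 7 and 8 gave 62.8, 55.9 and 103 CPM, and regions 2, 3 and 11 each held a raw count of 1. The deeper Pdpn-adjacent regions therefore lay within the SMA-adjacent range, and the 3 regions at a count of 1 lay below it. The fitted log2 fold change was -0.47 ± 0.31 SE (95% interval -1.10 to 0.16, edgeR adjusted p = 0.927, exact permutation p = 0.106, with regions of shared animals). With the above-background share of counts as covariate it was -0.03, and without regions 4 and 8 it was -1.11.

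H2-Eb1, the beta chain of the class II molecule called I-E, stayed near the negative-probe level. It ran from 0.621 to 2.13 times background in SMA-adjacent regions, with a median of 1.15, and from 0.375 to 2.04 times in Pdpn-adjacent regions, with a median of 0.991. It passed the floor in region 10, at 2.13 times background from 84 counts, and in region 11 from 2 counts. Its log2 fold change was -0.18 ± 0.28 SE (95% interval -0.75 to 0.39, edgeR adjusted p = 1.00). H2-DMa, a chain of the molecule that helps load peptides onto class II, ran from 0.567 to 1.22 times background in SMA-adjacent and from 0.375 to 1.28 times in Pdpn-adjacent regions. Its log2 fold change was -0.21 ± 0.21 SE (95% interval -0.65 to 0.22, edgeR adjusted p = 1.00). Both p-values rest on regions of shared animals.

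Ciita ran from 1.17 to 1.62 times background in SMA-adjacent and from 0.889 to 1.89 times in Pdpn-adjacent regions, below the floor throughout. Region 7 gave the highest value from 13 counts, and the 5 SMA-adjacent regions held 30 to 140 counts. Its log2 fold change was 0.01 ± 0.16 SE (95% interval -0.32 to 0.33, edgeR adjusted p = 1.00, with regions of shared animals), and the sign changed in 9 of the 21 alternatives that gave a value. Cd74 and H2-Ab1 were above the floor in regions where the probe of their coactivator was not. Since each probe binds with its own efficiency, this does not compare the levels of these genes.

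B2m, the light chain of class I, stood at 879, 480, 792, 928 and 1011 CPM in SMA-adjacent regions 1, 5, 6, 9 and 10. Pdpn-adjacent regions 4, 7, 8 and 11 gave 654, 843, 585 and 788 CPM, all within the SMA-adjacent range. Regions 2 and 3 gave 150 and 61.7 CPM from 4 and 5 counts, whose exact Poisson 95% intervals (counting error only) run from 1.09 to 10.2 and from 1.62 to 11.7 counts. Region 11 held 23 counts of B2m (14.6 to 34.5) in a library of 30316. The group means of B2m were 514 ± 330 CPM (SD, n = 6) and 818 ± 205 CPM (SD, n = 5), and regions 2 and 3 were the lowest of all 11. The log2 fold change was -0.64 ± 0.65 SE (95% interval -1.97 to 0.70, edgeR adjusted p = 1.00, exact permutation p = 0.190), and -0.24 without regions 2, 3 and 11. Shared animals affect these p-values too. With limma-voom the fold change was -2.06 (adjusted p = 0.547).

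The heavy chain probes were low in regions 2 and 3 as well. The H2-K1 probe, shared with H2-Q4, stood at 302, 161, 269, 410 and 444 CPM in SMA-adjacent regions 1, 5, 6, 9 and 10, and at 294, 335 and 402 CPM in Pdpn-adjacent regions 4, 7 and 8. Regions 2, 3 and 11 gave raw counts of 1, 2 and 6. Its log2 fold change was -0.37 ± 0.47 SE (95% interval -1.33 to 0.59, edgeR adjusted p = 1.00, exact permutation p = 0.288). Over all alternatives it ran from -0.86, without regions 4 and 8, to 0.14, with the above-background share of counts as covariate. It was -0.67 with limma-voom and -0.60 without region 8, and without regions 2, 3 and 11 the direction turned, to 0.11. These p-values too come from regions of shared animals.

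The H2-D1 probe, shared with H2-L, stood at 401, 197, 334, 431 and 498 CPM in SMA-adjacent regions 1, 5, 6, 9 and 10. Pdpn-adjacent regions 4, 7, 8 and 11 gave 305, 424, 336 and 548 CPM, the last from 16 counts and above every SMA-adjacent region, while regions 2 and 3 held 1 and 2 counts. The log2 fold change was -0.38 ± 0.50 SE (95% interval -1.41 to 0.66, edgeR adjusted p = 1.00, exact permutation p = 0.355). It was -0.08 without regions 2, 3 and 11, and 0.08 with the above-background share of counts as covariate. The limit of shared animals holds for these p-values. With limma-voom the fold change was -1.15 (adjusted p = 0.718).

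Ratios of counts within a region do not depend on library scaling. Cd74 over B2m, the invariant chain of class II against the light chain of class I, was 0.342 to 0.466 in the 5 SMA-adjacent regions. It was 0.264, 0.144 and 0.455 in Pdpn-adjacent regions 4, 7 and 8, so regions 4 and 7 lay below the SMA-adjacent range and region 8 within it. In region 7 this rested on 26 Cd74 counts and 181 B2m counts. H2-Aa over Cd74 was 0.364, 0.462 and 0.388 in regions 4, 7 and 8 and 0.242 to 0.319 in the SMA-adjacent regions. H2-Aa was below the floor in regions 4, 5, 6 and 7, and in region 7 it held 12 counts. Subtracting the negative-probe level from both counts was added once the data had been seen, and the H2-Aa ratio was 0.214 to 0.321 against 0.0618 to 0.260, and the region types overlapped. H2-D1 over B2m ran from 0.411 to 0.492 in the SMA-adjacent regions and from 0.465 to 0.574 in regions 4, 7 and 8. The H2-K1 over H2-D1 ratio reached 1.20 in region 8 and lay between 0.753 and 0.965 in the other 7 deeper regions.

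Across the 8 regions with more than 100000 counts, Cd74 was closest among the 9 genes to H2-Ab1, and B2m to H2-D1. For log2 level over background Cd74 had a Pearson's r of 0.97 with H2-Ab1 and 0.88 with H2-Aa, against 0.65 with B2m, 0.63 with H2-K1 and 0.62 with H2-D1. B2m had an r of 0.96 with H2-D1 and 0.80 with H2-K1. The classes were not separate, since H2-Aa and H2-Eb1 each had an r of 0.91 with H2-K1. Ciita had an r of 0.04 with Cd74 and 0.21 with H2-Ab1, at levels near background. These are descriptions over 8 regions, some of which share a mouse, and all levels are taken over the same negative probes.

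**Figure D3:**
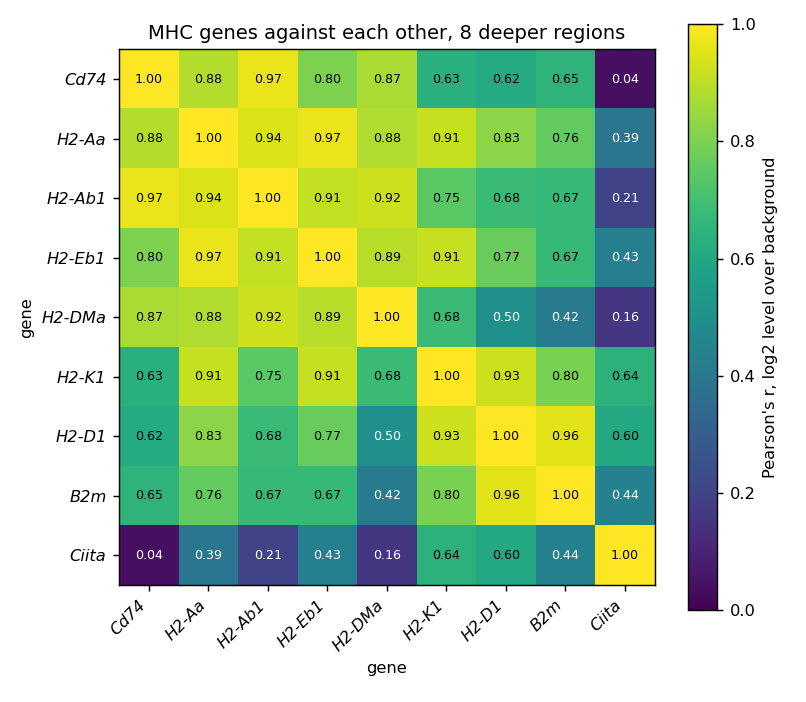
Pearson's r between the 9 genes over the 8 regions with more than 100000 counts, on log2 level over background. Brighter squares are higher values, 0.97 for Cd74 with H2-Ab1 and 0.96 for B2m with H2-D1, and the darkest square pairs Cd74 with Ciita at 0.04.

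The share of counts above background, which ran from 21.6% in region 5 to 41.6% in region 10 among these 8 regions, moved with the genes. It had an r of 0.97 with H2-Aa, 0.93 with H2-K1, 0.91 with H2-Ab1, 0.83 with Cd74 and 0.79 with B2m. Its median r over the 3838 probes above 2 times background in at least 4 of the 8 regions was 0.51. Both quantities are taken relative to the negative probes, so they are tied by construction. Pdpn-adjacent region 8, with a share of 41.4%, had the highest H2-K1 level of all regions at 15.5 times background. SMA-adjacent region 5, with 21.6%, had the lowest B2m, H2-K1 and H2-D1 levels of the 8, at 4.71 times for H2-K1 and 5.77 times for H2-D1. The part of this share in the difference between region types was not tested beyond the covariate given above.

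**Figure D4:**
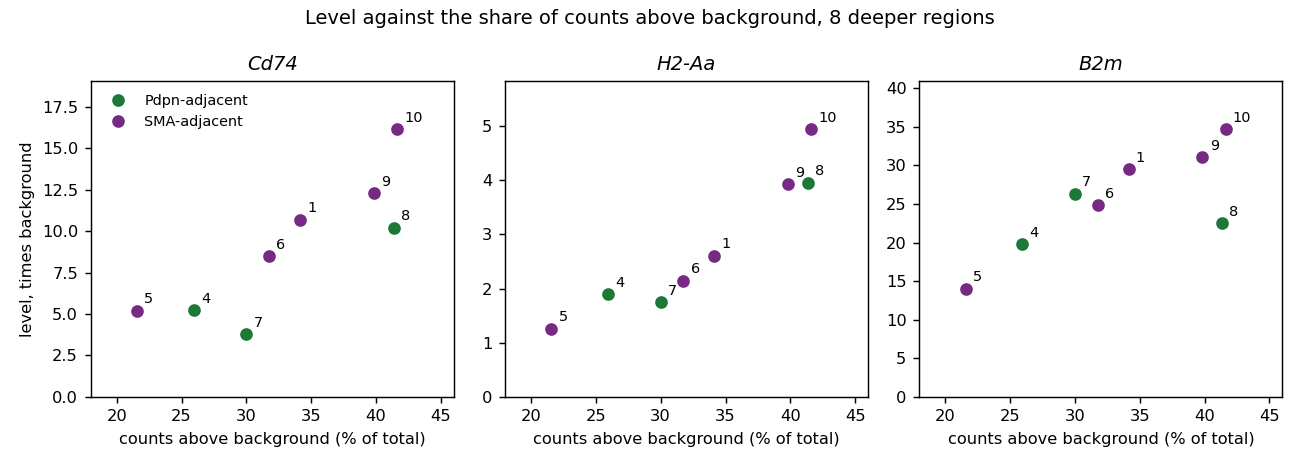
Level over background of Cd74, H2-Aa and B2m (vertical axes, starting at 0) against the share of a region's counts above background, in percent, for the 8 regions with more than 100000 counts, numbered and coloured by type. Levels rise with the share among the 5 SMA-adjacent regions. Pdpn-adjacent regions 7 and 8 lie below SMA-adjacent regions of like share for Cd74, and for B2m region 8 does so, at 22.5 times background.

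By a fixed rule, the 5 probes of 3837 whose level over background was most like that of Cd74 over these 8 regions were Adgrf5, an adhesion receptor (r = 0.995), Cd34, a surface sialomucin of endothelial and stromal cells (0.990), Cbx5, a heterochromatin protein (0.989), Heg1, a receptor of endothelium (0.983), and Rab11b, a small GTPase (0.982). The median r of Cd74 with all of them was 0.389, and 3.91% were above 0.9. For H2-K1 they included Rab11a, another small GTPase (0.988), the ribosomal protein gene Rpl7 (0.987) and Txn1, thioredoxin (0.985), with a median of 0.490 and 6.41% above 0.9. With 8 points and this many probes, values this high are a ranking and carry no test.

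No other class I gene or peptide loading factor passed the test. Of 22 listed, 19 were measured and 0 passed over all probes with edgeR, 0 at an unadjusted p under 0.05, and 0 with DESeq2 or limma-voom (median log2 fold change -0.04, all probes 0.01). Psmb8, an immunoproteasome subunit, passed the floor in 10 of 11 regions, as did Pdia3, a chaperone of class I folding. The peptide transporter genes Tap1 and Tap2 ran from 1.25 to 1.81 and 1.91 to 3.27 times background in SMA-adjacent regions, and from 0.952 to 3.00 and 0.375 to 3.45 times in Pdpn-adjacent regions. The 3 genes of smallest p were H2-T23, a nonclassical class I gene whose probe also matches H2-T-ps (log2 fold change -0.28 ± 0.25 SE, edgeR adjusted p = 0.986), H2-M3, which presents formylated peptides (0.21 ± 0.21 SE, 1.00), and Nlrc5, the class I counterpart of Ciita (-0.16 ± 0.17 SE, 1.00). By the exact permutation test of mean log2 CPM, 1 of the 19 was higher at an unadjusted p under 0.05, against 4.01% of all probes. It was H2-M3, higher in Pdpn-adjacent regions (exact permutation p = 0.0173, 0.612 after adjustment over all probes). The H2-M3 probe passed the floor in 0 regions. Its level peaked at 1.15 times background among Pdpn-adjacent regions and at 0.796 among SMA-adjacent ones. The H2-M3 difference therefore lies near the negative-probe level. Regions of shared animals enter these p-values too.

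Of the other class II and antigen processing genes, 16 were measured, and 0 passed with edgeR, 0 at an unadjusted p under 0.05 by edgeR or the exact permutation test, and 0 with DESeq2 or limma-voom (median log2 fold change 0.01). The protease Ctsl (-0.42 ± 0.27 SE, edgeR adjusted p = 0.927), H2-Ob, part of the modulator of peptide loading (0.27 ± 0.18 SE, 0.927), and Rfxank, a subunit of the X box factor (-0.25 ± 0.21 SE, 0.979), had the smallest p. Ctsl passed the floor in 9 regions and Rfxank in 8, whereas H2-DMb1, the partner chain of H2-DMa, and the costimulatory genes Cd40, Cd80 and Cd86 passed in 0. Of 20 genes of the interferon gamma pathway, 19 were measured and 0 passed in any of the same ways (median -0.03). Smallest in p were the chemokine Cxcl10 (0.37 ± 0.19 SE, edgeR adjusted p = 0.860), Ifng itself (-0.36 ± 0.19 SE, 0.879) and the kinase Jak1 (-0.23 ± 0.19 SE, 0.977). Ifng and Cxcl10 passed the floor in 0 regions. The p-values rest on regions of shared animals.

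Markers of other cell types that carry class II were low and differed in the same direction as Cd74. Over 12 macrophage markers the geometric mean level was 1.01 to 2.41 times background in Pdpn-adjacent and 1.64 to 2.54 in SMA-adjacent regions, and 4 of the 12 were lower at an unadjusted edgeR p under 0.05, against 3.19% of all probes (0 after adjustment, smallest adjusted p = 0.761). Csf1r, the receptor of a macrophage growth factor, stood at 2.59 to 4.08 times background in SMA-adjacent and 0.952 to 3.71 in Pdpn-adjacent regions and passed the floor in 8 regions. Adgre1, the F4/80 antigen, passed in 7 and Cd68 in 1. Region 8, highest of the Pdpn-adjacent regions in Cd74, was also highest of them in these markers at 2.41, and region 7 stood at 1.05. This was not particular to macrophage markers. Region 8 was also highest of the Pdpn-adjacent regions in blood endothelial (3.37), fibroblast (8.36), luminal epithelial (2.98), dendritic cell, B cell and T cell markers. It was not highest of them in smooth muscle, basal epithelial, adipocyte or skeletal muscle markers. Over 7 general leukocyte markers the level was 1.05 to 1.45 against 1.54 to 2.03 times background, near the negative-probe level. These ranges did not overlap, but those of the single genes did for 7 of 7, where 0.391% of all probes were lower without overlap. Of the 7, 3 were lower at an unadjusted edgeR p under 0.05, against 3.19% of all probes, and 0 after adjustment. Vav1 passed the floor in 6 regions, Tyrobp in 4, Laptm5 in 2, and Coro1a and Cd52 in 1 each. Cd53 and Ptprc, the leukocyte antigen CD45, passed it in 0.

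Dendritic cell markers (10 genes) ran from 1.03 to 1.39 and 1.12 to 1.31 times background, with Clec10a above the floor in 5 regions, Itgax in 1 and Flt3 and Zbtb46 in 0. B cell markers (8 genes) ran from 0.980 to 1.55 and 1.19 to 1.33, with Ms4a1 and Cd79a above the floor in 0 regions. T cell markers (8 genes) passed the floor in 0 regions. Blood endothelial markers, 8 genes, ran from 0.952 to 3.37 times background in Pdpn-adjacent and 2.06 to 4.15 in SMA-adjacent regions, with 4 lower at an unadjusted edgeR p under 0.05, against 3.19% of all probes, and a smallest adjusted p of 0.0989. Without region 5, and with DESeq2 on all regions, 1 of the 8 was lower after adjustment. Pecam1 passed the floor in 6 regions, Cdh5 in 8 and Vwf in 6. This p rests on regions of shared animals. The part of these cell types in the levels of Cd74 and H2-Ab1 was not tested.

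The fitted log2 fold changes of 8 fibroblast markers were below 0 for 8 of 8, with a median of -0.86, and 4 were lower at an unadjusted edgeR p under 0.05, against 3.19% of all probes (0 after adjustment, smallest adjusted p = 0.761). The collagen genes stood at -1.40 ± 0.60 SE for Col1a1, -1.29 ± 0.65 SE for Col3a1 and -1.19 ± 0.49 SE for Col1a2, beside -1.08 for Cd74. The mean level of the 8 ran from 0.952 to 8.36 times background in Pdpn-adjacent and from 4.76 to 12.0 times in SMA-adjacent regions. Adipocyte markers (6 genes) had a median of -0.62, with 5 of 6 below 0 and 0 at an unadjusted edgeR p under 0.05. Over regions of shared animals, these p-values may be too small, and the part of these markers in the MHC gene levels was not tested.

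Other tissue around the captured cells also differed between regions. Skeletal muscle markers (7 genes) stood at 52.0 times background in region 3 and 31.6 times in region 7, and at 0.964 to 7.40 times in the other 9 regions. Luminal epithelial markers (8 genes) stood at 2.76 and 2.98 times in regions 4 and 8 and at 0.970 to 1.80 times elsewhere. Smooth muscle markers (7 genes) ran from 3.38 to 15.5 times background in SMA-adjacent and 1.00 to 3.01 times in Pdpn-adjacent regions. Without regions 3 and 7 the log2 fold change of Cd74 was -0.88 (edgeR adjusted p = 0.845, exact permutation p = 0.0317) and that of H2-Ab1 -0.56 (0.894, exact permutation p = 0.0952), again over regions of shared animals. The part of these tissues in the MHC gene levels was not tested otherwise.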

How the data were processed

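Per the labels' protocols, fixed frozen mammary gland of 3 mice was hybridised with the mouse Whole Transcriptome Atlas probes, and 12 areas were collected. The 11 with a label and a column are used here. The authors deposited raw counts per probe, judged from whole-number values of differing totals. Reads to counts, and removal of duplicates, are not given in the sources used here. Per the file headers, coordinates of the probes refer to GRCm38.p6.

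The 19965 endogenous probes were filtered with filterByExpr (19935 kept), scaled by TMM and tested with the quasi-likelihood test of edgeR 4.0.16 in R 4.3.3, two-sided, with Benjamini-Hochberg adjustment over all probes and a threshold of 0.05. SEs are those implied by p. CPM and the exact permutation test used the same scaling, with no pseudocount since no count is 0. The 210 negative probes set background and stayed out of library sizes. DESeq2 1.42.0 and limma 3.58.1 were alternatives. Genes and lists were chosen with earlier results of these data known. The text names all 9 genes, the 3 of smallest p in each pathway list, the 5 probes most alike Cd74 and H2-K1, and defining markers. Some genes this rule names are not reported here. Psmb8, Pdia3, Tap1, Tap2, Csf1r and other list genes given by level alone were picked after their values were seen. The letters of the NF-kB type motif were shortened after its matches were seen. Nothing ties regions to separate animals, so p-values measure the spread between regions.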

Additional observations from a re-analysis of the deposited data

How the results depend on the processing

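Under 22 alternatives for each of 6 genes and 21 for H2-Eb1, H2-DMa and Ciita, which the filter on probes above 2 times background left out, 179 of 195 fold changes kept their direction, and 0 of the 9 genes passed the threshold in any. Cd74 ran from -1.75 to -0.69, H2-Ab1 from -1.60 to -0.42, H2-Aa from -1.11 to -0.03 and B2m from -2.06 to -0.18, and adjusted p for these 4 from 0.217 to 1.00. The direction turned for H2-K1 without regions 2, 3 and 11 (0.11), for H2-K1 (0.14), H2-D1 (0.0797) and H2-Eb1 (0.21) with the above-background share as covariate, and for H2-Eb1 (0.17) and H2-DMa (0.0752) with limma-voom, whose median over all probes was 0.14. Relative to that median they were 0.03 and -0.06. Ciita was -0.0093 with upper-quartile factors, -0.0041 scaled by negative probes and -0.10 without regions 3 and 7. Leaving out 1 region at a time gave -0.0766 to 0.241 for Ciita and -0.407 to 0.0067 for H2-Eb1. The cause was not tested.

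The count of probes called, 2 in the main fit, was 1 to 53 when 1 region was left out (53 with region 5 left out, 13 with region 7 left out, and 1 with region 2, 3, 9, 10 or 11 left out). It was 1 with the filter on probes above 2 times background, with upper-quartile factors, scaled by negative probes and without regions 2, 3 and 11. It was 13 without regions 4 and 8, 14 without regions 3 and 7, 37 with the covariate, 17 with DESeq2 and 0 with limma-voom. The number of the 9 genes with an unadjusted exact permutation p under 0.05, 2 in the main fit, was 1 to 3 when 1 region was left out (3 without region 8, 1 without region 2, 3, 7, 9, 10 or 11). It was 0 without regions 2, 3 and 11, which leaves 3 regions against 5, 1 without regions 3 and 7, and 3 without regions 4 and 8 (Cd74 0.00794, H2-Ab1 0.0159, H2-Aa 0.0317). Background subtraction, added after seeing the data, took the median H2-Aa over Cd74 ratio, Pdpn-adjacent over SMA-adjacent, from 1.53 to 1.62. Regions 4, 5, 6 and 7, where H2-Aa was below the floor, enter those medians. No paired analysis was possible because the labels do not tie regions to mice, so any pairing between the groups is unknown. Counts of 1 to 8 in regions 2 and 3 limit every gene there.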
